A study of Mus musculus with 8 samples.

Results

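Macrophages with high Arg1 and low MHC class II transcript levels were selected among cells sorted as CD45+CD11b+Ly6Chi from MC38 tumors, which are transplanted mouse colon carcinomas. A tumor barcode was taken as such a cell with at least 20 UMIs (unique molecular identifiers, which count captured mRNA molecules) of Arg1, fewer than 5 UMIs of Folr2, Fcrls, Ccl8 and Gas6 together, and less than 1% of its gene UMIs in Cd74, H2-Aa, H2-Ab1 and H2-Eb1. It also had at least 500 gene UMIs, 200 genes and 20 hashtag UMIs and at most 25% mitochondrial UMIs. These limits were met by 2301 of the 12330 tumor barcodes to which a genotype could be given (18.7%), and a further 140 barcodes met them without a genotype. The whole series held 32121 barcodes that passed the limits on UMIs, genes, mitochondrial share and hashtags. Arg1, the class II genes and the resident macrophage genes chose the cells, which were selected on these measured values, so their levels are given as a description.

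The study asked how ionizing radiation (IR) and loss of the m6A reader YTHDF2 in myeloid cells alter the myeloid cells of a tumor. Tumors grew in C57BL/6J mice and were left untreated (control) or received 1 dose of 20 Gy, 3 days before collection. Mice carried Ythdf2 fl/fl alleles in every group, without Cre (WT) or with Lyz-Cre (Ythdf2-cKO, hereafter cKO). Lyz-Cre sits in the Lyz2 locus and is active in monocytes, macrophages and neutrophils, so it replaces Lyz2 sequence on the allele that carries it. Cells of pooled mice made 1 pool per group, and the WT and cKO cells of a treatment were marked with 1 of 2 hashtag antibodies (B0301 for WT, B0302 for cKO) and run in the same droplet library. The 4 tumor groups are given below in the order WT control, WT IR, cKO control and cKO IR unless stated otherwise. Each group was 1 sample, so no p-value, standard error or replicate spread exists for any comparison, and every interval is at the 95% level and covers counting error only.

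Arginase 1, the product of Arg1, splits arginine into ornithine and urea and thereby removes the amino acid that T cells need to proliferate and that nitric oxide synthase uses. Tumor macrophages that express it are often found in poorly perfused regions, where hypoxia-inducible factors raise genes of glycolysis, angiogenesis and lipid storage. MHC class II molecules present peptides to CD4+ T cells, and macrophages low in them are poor at this task. Monocytes that enter a tumor lose Ly6c2 and gain C1q, Mrc1 and other macrophage genes as they mature.

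The tumor libraries held 87703837 (control) and 81601307 (IR) gene UMIs, and the selected cells had a median of 7587, 7509.5, 9335.5 and 7288.5 UMIs. Barcodes were shared between the tumor matrices to an extent that touches every comparison of IR with control. All 551 selected barcodes of the control matrix, and 1749 of 1750 of the IR matrix, had 500 or more UMIs in the other tumor matrix too, where they carried a median of 0.453 and 0.589 times the UMIs of their own matrix. Their summed profiles in both matrices differed past a 2-fold limit for 0 of 6202 and 1 of 8237 genes, while only 12 and 42 of them also had 20 hashtag UMIs there, and 10 and 33 met all limits there. The hashtag minimum therefore decided to which treatment a barcode was given. Leaving out the shared barcodes left 0, 0, 0 and 1 cells, so no result could be repeated without them.

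The genotype labels rest on hashtags, and the targeted gene went against them. Ythdf2 was at 59.8 (50.0 to 71.0) CPM (a gene's UMIs as counts per 1000000 gene UMIs of the group's summed cells) in WT control, 50.8 (45.2 to 56.9) in WT IR, 596 (569 to 624) in cKO control and 367 (354 to 380) in cKO IR. It was thus higher in the cells labelled cKO, by 3.31 on the log2 scale in control and 2.85 in IR. A count at the 3′ end of a transcript does not check a deletion that lies elsewhere in the gene, and whether the transcript counted was intact was not tested. Lyz2, where the Cre is inserted, went with the labels, at 7727 and 5689 CPM in cells labelled WT and 82.1 and 165 CPM in cells labelled cKO (log2 −6.55 in control and −5.11 in IR). Lyz1, a neighbouring lysozyme gene that is nearly identical to Lyz2, was higher in cells labelled cKO by 5.43 and 4.39, and is uncertain because reads can be split between the copies. WT and cKO below mean cells so labelled by their hashtag.

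Cells of this kind were a larger share of the irradiated than of the control tumor cells in both genotypes. In control tumors they were 251 of 2703 WT barcodes (9.29%, Clopper-Pearson interval 8.22 to 10.4) and 300 of 2284 cKO barcodes (13.1%, 11.8 to 14.6). After IR they were 724 of 3367 WT barcodes (21.5%, 20.1 to 22.9) and 1026 of 3976 cKO barcodes (25.8%, 24.5 to 27.2). The share was 12.2 percentage points (Newcombe interval 10.4 to 14.0) higher after IR in WT and 12.7 points (10.7 to 14.6) higher in cKO. The cKO share was above the WT share by 3.85 points (2.09 to 5.63) in control and 4.30 points (2.35 to 6.24) in IR. This genotype difference depended on how leniently WT was assigned, because WT needed only as many B0301 as B0302 UMIs while cKO needed 4 times as many B0302 as B0301. With the 4-fold margin on both sides the difference was −0.0449 points in control and 0.493 points in IR.

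**Figure D1:**
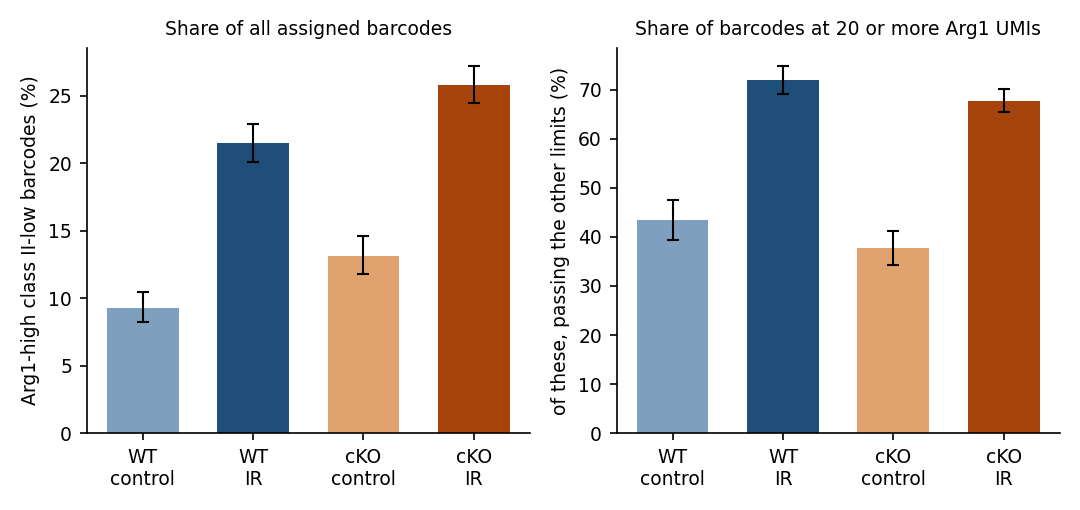
Share of Arg1-high class II-low barcodes (percent, y axis) in the 4 tumor groups (x axis), of all barcodes with a genotype on the left and of barcodes with at least 20 Arg1 UMIs on the right. Bars are 1 pool each and whiskers are Clopper-Pearson 95% intervals. The share rose from 9.29% to 21.5% in WT and from 13.1% to 25.8% in cKO, and of the Arg1-rich barcodes from 43.4% to 72.0% and from 37.7% to 67.8%.

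More of the Arg1-rich cells passed the other limits in irradiated than in control tumors. Of the barcodes with 20 or more Arg1 UMIs, 43.4% of 578, 72.0% of 1005, 37.7% of 795 and 67.8% of 1514 passed the class II and resident gene limits together. Among these Arg1-rich barcodes, 265, 267, 369 and 436 had at least 1% class II. Resident genes reached 5 UMIs in 80, 15, 164 and 64, and a barcode could fail both limits. In blood, none of 9622 control and 9237 IR barcodes of the same quality passed, for which the limit that a count of 0 allows, set at 3 barcodes, was 0.0312% and 0.0325% (Clopper-Pearson upper bounds 0.0383% and 0.0399%), and no blood barcode had more than 9 Arg1 UMIs. Arg1 itself, used by the rule, had a median of 45, 49, 63 and 56 UMIs per selected cell and a highest value of 184, 242, 468 and 324. The median share of UMIs in the 4 class II genes was 0.152%, 0.125%, 0.114% and 0.138%. Cells just inside the Arg1 limit (20 to 24 UMIs, 225 cells) had 505 CPM of Mmp12 and 1017 CPM of Hilpda, and cells just outside (15 to 19 UMIs, 274 cells) had 715 and 808 CPM. Cells at 0.8 to 1% class II (167 cells) and at 1 to 1.2% (157 cells) had 1139 and 1474 CPM of Mmp12, and cells at 3 to 4 and 5 to 6 resident gene UMIs (47 and 31 cells) had 1069 and 859. The limits thus cut through continuous ranges.

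The macrophage name is that of the rule, and marker lists were summed to describe the cells. All 9 genes of the macrophage list, among them Adgre1, C1qa, Csf1r, Cd68 and Mertk, reached 10 CPM in every group, and 97.5% to 99.3% of the cells held at least 3 UMIs of them. Monocyte genes were present too, with a summed level of 1827, 5751, 2617 and 4810 CPM against 4537, 3800, 6506 and 4701 CPM for the macrophage list. The monocyte sum was thus above the macrophage sum in the IR groups and below it in the control groups. Unthinned, C1qa was found in 36.3%, 33.0%, 55.7% and 42.9% of the cells and Ly6c2 in 35.1%, 71.3%, 29.3% and 67.8%. The cells therefore carried macrophage and monocyte transcripts together, more monocyte transcripts in the IR groups. These figures do not settle whether the cells of the IR groups are macrophages or monocytes. Markers of other cells were low but differed between the groups. The neutrophil list summed to 249, 699, 121 and 370 CPM, the NK cell list to 57.5, 53.9, 4.27 and 36.5, the fibroblast list to 239, 9.15, 26.9 and 8.66, the T cell list to 58.0, 6.44, 1.64 and 4.27 and the dendritic cell list to 35.6, 2.20, 2.95 and 15.9. The neutrophil gene Ly6g was at 0 in the control groups, B cell markers summed to at most 4.27 CPM, all 4 mast cell or basophil genes were at 0, and the carcinoma list was nearly all Cdh1. Leaving out every cell with 3 or more UMIs summed over the lists of other cells left 172, 524, 198 and 765 cells. Those lists were neutrophil, dendritic cell, T cell, NK cell without Nkg7, B cell, fibroblast and carcinoma, so Mmp8 and Cdh1 counted toward the sum.

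Beside Arg1, these cells held transcripts of matrix metalloproteinases, a lipid droplet protein and osteopontin. Mmp12, the macrophage elastase, was at 1437, 1291, 967 and 1259 CPM, and Mmp13, a collagenase, at 233, 241, 187 and 324 CPM. Hilpda, a hypoxia-induced protein that blocks the breakdown of stored triglyceride, was at 1047, 1189, 703 and 1198 CPM. Spp1, which encodes the secreted adhesion protein osteopontin, was at 4516, 5652, 4542 and 4828 CPM. The cKO control group was lowest for Mmp12, Mmp13 and Hilpda, and WT IR was highest for Spp1. Il1b and Cxcl2, inflammatory products of activated myeloid cells, were among the most abundant transcripts, at 9315, 8750, 10706 and 8404 CPM and 11918, 13800, 13097 and 10889 CPM.

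The marker genes were not in every cell. After each cell was thinned to 3000 UMIs, 49.2%, 42.1%, 32.6% and 48.0% of the cells had a UMI of Mmp12, and 74.8%, 76.4%, 61.4% and 79.3% had one of Hilpda. The shares were 18.8%, 16.7%, 11.7% and 24.1% for Mmp13 and 85.2%, 86.6%, 89.3% and 84.4% for Spp1. Unthinned, Mmp12 was found in 62.2%, 49.9%, 43.0% and 57.4% of the cells. Barcodes with at least 5 UMIs of Ncr1, Klrb1c, Klre1 and Gzma and fewer than 3 of C1q (NK-like) were used to gauge free RNA. Whether NK-like cells express the marker genes themselves was not tested. The 100 control and 69 IR barcodes of this kind that were deep enough were thinned too. They had a UMI of Mmp12 in 4.0% and 14.5%, of Mmp13 in 2.0% and 2.90%, of Hilpda in 26.0% and 40.6% and of Spp1 in 26.0% and 34.8%. Their median depth was 2786 and 2426.5 UMIs before thinning. The selected cells exceeded the NK-like barcodes for all 4 genes in each group.

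Pairs of markers were also compared cell by cell. Given as a description over cells of 1 library, which share depth and free RNA, the Spearman correlation of depth-scaled levels was 0.49, 0.35, 0.33 and 0.24 between Mmp12 and Mmp13. It was 0.20, 0.28, 0.42 and 0.30 between Hilpda and Egln3, a prolyl hydroxylase that is itself a target of the hypoxia-inducible factors. Arg1 followed Hilpda at 0.23, 0.19, 0.26 and 0.15 and Mmp12 at 0.16, 0.19, 0.07 and 0.20, while Arg1, cut by the rule at 20 UMIs, went with the UMI count at −0.34, −0.17, −0.23 and −0.13. C1qa and Pf4, the gene of platelet factor 4, gave 0.41, 0.28, 0.58 and 0.31. Il1b and C1qa went in opposite directions at −0.41, −0.18, −0.53 and −0.24. The number of cells was 251, 724, 300 and 1026, and in sparse genes such as Mmp13 a low correlation does not show that 2 genes are unrelated.

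The comparison macrophages of the same sort were 696 barcodes (256, 130, 164 and 146) with at least 10 C1q UMIs, at least 1% class II, fewer than 20 Arg1 UMIs and fewer than 5 resident gene UMIs. Arg1-rich barcodes that failed the class II or resident limit were left out, so the ratios do not set the selected cells apart from those. Just inside the class II limit (0.8 to 1%) Hilpda was at 905 and Spp1 at 4440 CPM. Just outside (1 to 1.2%, Arg1-rich too) they were at 905 and 3979 CPM. Pf4 and the clotting genes named below were not compared across that limit. Log2 ratios of CPM were computed with 1 UMI, scaled to depth, added to each sum, and a gene was counted with at least 100 UMIs in both sets together. A gene was called past the limit at a log2 ratio of 1 or more in size in the same direction in all 4 groups. Of 4357 genes outside the rule, 59 (1.35%) were higher and 31 (0.711%) lower in the Arg1-high cells. The cells of both kinds had been split by measured values, so these are descriptions without a test. The genes named are the first 10 in each direction, ranked by the smallest ratio over the 4 groups, and genes of the pathway lists.

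Genes of clotting and platelet chemokines led the difference. Pf4, which encodes platelet factor 4, was at 1607, 1290, 1737 and 2094 CPM in the Arg1-high cells and 78.9, 67.8, 113 and 69.4 CPM in the class II-high macrophages, a log2 ratio of 4.34, 4.24, 3.94 and 4.91. Thbd, the thrombin receptor thrombomodulin, was at 104, 158, 56.5 and 132 CPM against 12.7, 12.8, 6.26 and 6.31, and F13a1, the A chain of coagulation factor XIII, was higher by 2.38, 2.91, 3.59 and 3.30. These 3 genes were picked for ratios past the limit in all 4 groups, so the lack of overlap between the kinds of cell adds nothing further. Serpinb2, an inhibitor of plasminogen activators, was at 96.8, 52.9, 90.3 and 62.2 CPM against 3.29, 0.982, 0 and 9.01. Slpi, a secreted inhibitor of neutrophil elastase, was higher by 3.30, 2.75, 2.92 and 2.93, and Cxcl3, a neutrophil attractant, by 4.76, 2.60, 4.52 and 3.34. The remaining leading genes were Egln3, higher by 2.29, 2.21, 3.22 and 2.20, the metallothionein Mt2, by 2.08, 2.44, 1.96 and 1.98, Fam20c, a secretory pathway kinase, by 2.18, 2.85, 2.26 and 2.18, and Pmp22, by 3.11, 3.12, 2.89 and 2.65.

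Genes that load class II molecules were among the leaders of the other direction. H2-DMb1, a chaperone that loads peptide onto class II molecules and was not part of the rule, was at 91.3, 68.8, 117 and 84.8 CPM against 957, 838, 933 and 908 CPM, a log2 ratio of −3.38, −3.60, −3.0 and −3.42. H2-DMa and H2-DMb2 of the same complex were also lower, by −2.21 to −1.76 and −3.43 to −2.48. Both kinds of cell had been split on other class II genes, so the lower levels of these genes are no independent finding. Ccl17, a chemokine for T cells, fell from 245, 1268, 232 and 323 CPM in the class II-high macrophages to 21.0, 5.25, 0.985 and 5.49. Itgax, the integrin CD11c, was lower by −2.34, −1.95, −1.87 and −1.91, and Klrb1b, an inhibitory lectin receptor, by −4.58, −5.39, −3.89 and −4.29. The other genes were Il1r2, a decoy receptor for interleukin 1 (−3.37 to −2.19), Cd72 (−2.50 to −1.88), P2ry10 (−3.05 to −1.85) and Serpina3g (−2.92 to −1.77). Cxcl9, an interferon-γ-induced chemokine for T cells, was lower by −2.18, −1.47, −2.29 and −2.02.

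Read by pathway, the Arg1-high cells had higher medians for metalloproteinase and chemokine genes and lower ones for class II genes than the class II-high macrophages. The median over all counted genes was −0.09, −0.07, 0.01 and −0.05. Of 27 counted genes of hypoxia and glycolysis, 3 were higher past the limit in all groups (Hilpda by 1.04 to 2.29, Bnip3, a mitophagy receptor, by 1.30 to 1.63, and Egln3), 0 were lower, and the list's median was 0.38 to 0.59. Of 9 matrix metalloproteinase genes (list median 0.83 to 1.63), 4 were higher, namely Mmp12 (1.30 to 2.58), Mmp13 (1.72 to 3.79), Mmp8 (1.33 to 4.63) and Adam8 (1.16 to 1.63). Mmp8 also belongs to the neutrophil list, and the part of neutrophils in its ratio was not tested. Of 13 genes of lipid-associated macrophages, Spp1 (1.66 to 2.85), Abca1, a cholesterol exporter (1.13 to 2.39), Ctsl (1.58 to 2.06) and Ctsd (1.22 to 1.55) were higher. Of 13 suppressive and angiogenic factors, 3 were higher, Thbs1 (thrombospondin 1, 1.61 to 2.83), Hmox1 (heme oxygenase 1, 1.51 to 2.08) and Inhba (the activin A subunit, 1.0 to 1.81), while Vegfa, the main angiogenic factor, had ratios of 0.75, 1.37, 0.56 and 1.05. Of 11 monocyte-attracting chemokine genes (list median 0.73 to 1.86) 5 were higher, among them Ccl2 (1.81 to 2.77) and Ccl7 (1.47 to 2.54), and of 16 inflammatory genes 4 were higher, among them Il6 (1.63 to 3.89), and Ccl5 was lower. Class II genes outside the rule had a list median of −1.68 to −1.5 and 4 of 7 were lower, which is not independent of the split on class II. Of 8 complement genes 0 passed in either direction, and C1qa, which chose the comparison cells, was at −1.49, −1.73, −0.87 and −1.41.

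Sequence around the transcription start was read for 2 genes of the hypoxia list, Hilpda and Egln3, because both stood among the markers of these cells. Each window runs from 250 bases before the start to 50 bases after it, in the direction of the gene, from RefSeq on GRCm38.p6. Hilpda is on the plus strand at chr6:29272376-29272675 and Egln3 on the minus strand at chr12:54203825-54204124. Capitals mark ACGTG, the core of the hypoxia response element, searched on both strands (CACGT on the other), which is contained in the E-box CACGTG.
Hilpda: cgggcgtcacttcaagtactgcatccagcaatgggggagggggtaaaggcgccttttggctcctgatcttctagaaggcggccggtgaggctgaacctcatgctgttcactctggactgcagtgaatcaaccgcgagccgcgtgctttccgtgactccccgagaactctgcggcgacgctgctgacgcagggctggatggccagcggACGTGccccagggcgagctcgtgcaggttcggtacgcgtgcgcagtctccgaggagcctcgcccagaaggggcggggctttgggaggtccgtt
Egln3: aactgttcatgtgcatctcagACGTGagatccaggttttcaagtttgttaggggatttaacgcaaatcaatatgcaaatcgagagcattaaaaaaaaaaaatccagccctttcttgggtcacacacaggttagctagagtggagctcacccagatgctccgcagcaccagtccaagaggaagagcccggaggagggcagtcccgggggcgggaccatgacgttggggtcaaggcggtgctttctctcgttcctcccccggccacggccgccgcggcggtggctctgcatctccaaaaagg
The letters were found in 22 of 28 hypoxia list genes with a window (78.6%), in 5886 of 27025 genes overall (21.8%) and in 0 of 15 interferon list genes. A match is a run of letters and says nothing of binding in these cells.

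Cells with under 5 UMIs each of C1q, Arg1 and the resident genes and at least 5 UMIs of Ly6c2, Plac8, Vcan and Chil3 were taken as the closest monocyte-like cells (3622 barcodes, namely 975, 1097, 535 and 1015). Of 6742 counted genes, 147 (2.18%) were higher and 190 (2.82%) lower past the limit in all 4 groups in the Arg1-high cells, with a median over all genes of −0.15, −0.14, −0.13 and −0.09. The comparison set was mixed: 24%, 12.2%, 38.5% and 14.7% of its barcodes held 3 or more UMIs of markers of dendritic, T, NK, B, fibroblast or carcinoma cells, against 9.23% to 14.0% in the class II-high macrophages. Without those barcodes 243 genes passed in place of 337.

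Against the monocyte-like cells, Pf4, metalloproteinases and Mrc1 were among the genes with the largest ratios in the Arg1-high cells. Pf4 was higher by 7.65, 5.87, 7.5 and 6.50, and Mrc1, the mannose receptor, by 3.80, 4.22, 5.91 and 3.78. The metalloproteinases Mmp13 (5.40 to 5.95) and Mmp12 (4.73 to 5.62), the coagulation factor gene F7 (3.38 to 4.75), the chemokine Ccl12 (3.34 to 4.39) and Ms4a7 (3.67 to 4.78) followed. C1qa was at 643, 474, 1196 and 651 CPM against 10.1, 8.28, 7.81 and 11.6, but C1q had chosen the monocyte-like cells, so C1qa, C1qb and C1qc are no finding here, and of the 5 other counted genes of the macrophage list 1 passed. Spp1 was higher by 3.57, 3.4, 2.89 and 3.48 and Hilpda by 2.92, 2.47, 2.97 and 2.26. The genes lowest in the Arg1-high cells were Cd209a, a dendritic cell lectin (at 71.2, 41.7, 32.0 and 73.2 CPM in the comparison cells), Tmem176b (101, 64.2, 63.2 and 70.8), the granzyme gene Gzmc (489, 18.9, 395 and 31.7), and Krt14, Timp3, Sox9, H1fx, Tcim, Crabp2 and Plod2, of which Krt14, Timp3 and Sox9 are known from epithelial and stromal cells. The part of other cell types in these lower genes was not tested. Of 8 counted proliferation genes 5 were lower in all 4 groups, and of 16 inflammatory genes 9 were higher.

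**Figure D2:**
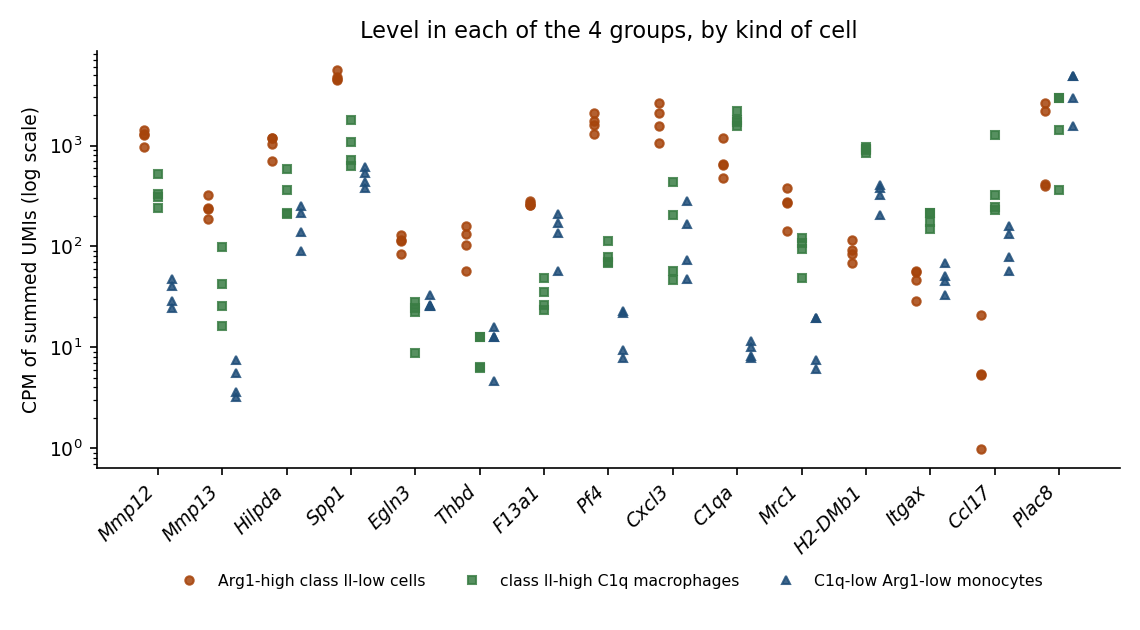
Level of 15 genes (x axis) as CPM of summed UMIs on a log scale (y axis), with 1 point per tumor group for the Arg1-high class II-low cells, the class II-high C1q macrophages and the C1q-low Arg1-low monocytes. Pf4 lies at 1290 to 2094 CPM in the Arg1-high cells and at 113 CPM or less in both other kinds, while H2-DMb1 lies at 117 CPM or less against 838 to 957 CPM in the class II-high macrophages.

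Between irradiated and control tumors, the Arg1-high cells differed in interferon-stimulated and monocyte genes among others. Of 6096 genes counted in WT, 241 (3.95%) were higher and 115 (1.89%) lower past the limit of 1 after IR. In cKO, 371 of 7007 (5.29%) were higher and 4.31% lower, and with equal numbers of cells per group the 673 genes past the limit in cKO became 411. Among 6085 genes counted in both genotypes, 203 were higher and 66 lower in both. With TMM scaling the median of all genes moved from 0.01 to 0.15 in WT and from 0.00 to 0.12 in cKO. The higher genes then made up 80.3% of the calls in place of 67.7% in WT, and 67.3% in place of 55.1% in cKO.

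Most genes of the interferon list were higher in irradiated than in control cells of either genotype. In WT 15 of 17 counted genes were higher and 1 lower, with a list median of 2.03, and in cKO 14 of 17 were higher and 0 lower, with a median of 3.08. Isg15, a ubiquitin-like modifier, went from 404 to 2039 CPM in WT and from 300 to 2102 in cKO, a log2 ratio of 2.34 (2.24 to 2.44) and 2.81 (2.71 to 2.91). Rsad2, the antiviral enzyme viperin, went from 368 to 1214 and from 91.6 to 1082 CPM, a ratio of 1.72 (1.62 to 1.83) and 3.56 (3.39 to 3.74). Irf7, the transcription factor that amplifies the response, was higher by 2.72 and 3.47, and Ifit1 by 2.21 and 3.44. These genes are examples past the limit in both genotypes, so both IR groups lying above both control groups adds nothing further. The gene that went the other way was Cxcl9, at 398, 182, 321 and 175 CPM (−1.13 in WT, −0.87 in cKO), while Cxcl10, which binds the same receptor, was at 691, 1410, 688 and 1126 CPM (1.03 and 0.71).

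**Figure D3:**
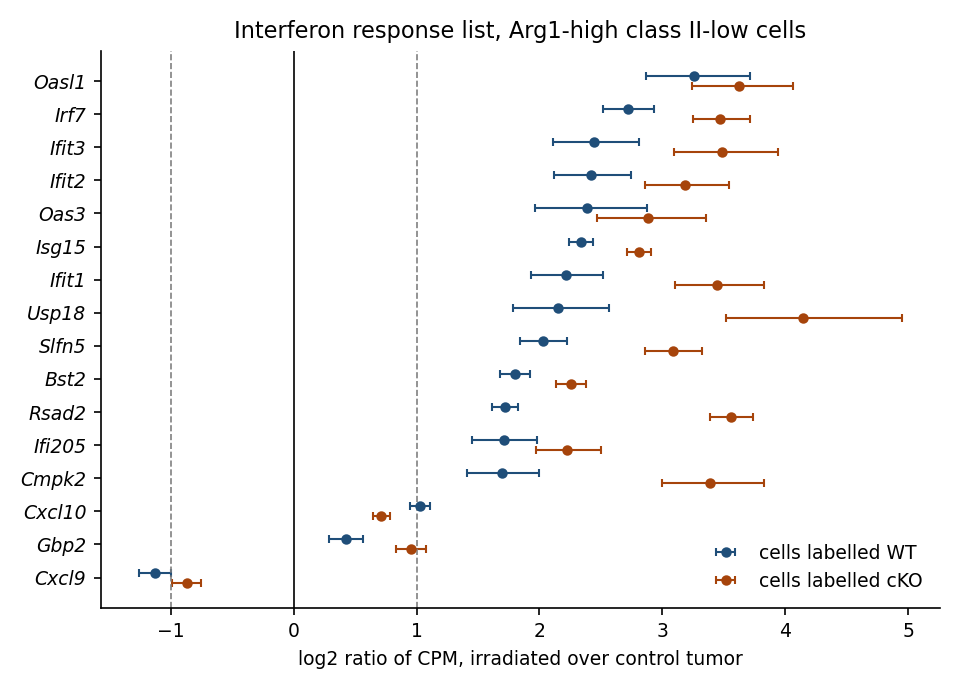
Log2 ratio of CPM of irradiated over control tumor (x axis) for genes of the interferon response list (y axis) in Arg1-high class II-low cells labelled WT or cKO, with exact 95% intervals for counting error. Dashed lines mark the limit of 1 on either side, and points lie to the right of 0 for every gene drawn except Cxcl9 at −1.13 and −0.87.

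Per cell, Rsad2 was seen in more cells after IR. Thinned to 3000 UMIs, 10.8% and 4.03% of the WT and cKO control cells had a UMI of Rsad2, and 47.4% and 44.2% of the IR cells (unthinned 15.5%, 10%, 56.2% and 54.6% in the same order). The NK-like barcodes had a UMI of it in 3.0% of the control and 26.1% of the IR library, where free RNA and the NK-like cells' own response cannot be told apart. The promoter windows of Rsad2, Ifit1 and Isg15 are shown as examples of the interferon list. Rsad2 is on the minus strand at chr12:26456403-26456702, Ifit1 on the plus strand at chr19:34640639-34640938 and Isg15 on the minus strand at chr4:156200769-156201068 (RefSeq, GRCm38.p6, 250 bases before to 50 after the start). Capitals mark the core of the interferon-stimulated response element, GAAA and GAAA with any 2 bases between them, found on either strand (TTTC and TTTC on the other), with overlapping matches joined in Isg15.
Rsad2: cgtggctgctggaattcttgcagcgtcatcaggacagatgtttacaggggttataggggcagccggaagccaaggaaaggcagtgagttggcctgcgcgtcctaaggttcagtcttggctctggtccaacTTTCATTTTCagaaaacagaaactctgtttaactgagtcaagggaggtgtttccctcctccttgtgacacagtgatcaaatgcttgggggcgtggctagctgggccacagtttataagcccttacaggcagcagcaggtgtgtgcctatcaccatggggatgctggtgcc
Ifit1: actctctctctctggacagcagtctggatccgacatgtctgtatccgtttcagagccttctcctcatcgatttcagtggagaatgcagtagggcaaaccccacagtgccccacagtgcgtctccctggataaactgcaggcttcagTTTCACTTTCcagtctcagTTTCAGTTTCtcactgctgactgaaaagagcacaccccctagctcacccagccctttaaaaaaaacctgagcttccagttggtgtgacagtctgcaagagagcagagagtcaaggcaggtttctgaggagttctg
Isg15: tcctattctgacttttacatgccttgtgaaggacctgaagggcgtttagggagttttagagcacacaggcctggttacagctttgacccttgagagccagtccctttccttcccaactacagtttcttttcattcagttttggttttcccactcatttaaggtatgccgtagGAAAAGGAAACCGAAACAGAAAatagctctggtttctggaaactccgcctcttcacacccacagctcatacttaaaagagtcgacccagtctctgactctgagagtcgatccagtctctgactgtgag
The windows held 1, 2 and 3 matches. A match was found for 10 of 15 interferon list genes with a window (66.7%), 1 of 28 hypoxia list genes (3.57%) and 1079 of 27025 genes overall (3.99%), which describes the letters and not a binding site.

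The 10 genes with the largest rise in both genotypes were mostly of the same kind. Ifit3b went from 0.913 and 0.328 CPM, which are 2 and 1 UMIs, to 24.7 and 22.3 CPM, a ratio of 4.43 (2.88 to 7.82) in WT and 5.47 (3.59 to 11.4) in cKO. Slfn4, an interferon-induced gene of monocytes, went from 32.4 to 336 CPM in WT and from 7.88 to 262 in cKO (3.36 and 5.02). Oasl1 rose by 3.26 and 3.62, Isg20, an exonuclease, by 3.1 and 3.93, Ifi208 by 4.36 and 3.4, Ifit1bl1 by 3.56 and 4.04 and Ddx60 by 2.90 and 3.83. The other leaders were neutrophil and NK cell genes, S100a9 (7.31 to 297 CPM in WT, 15.1 to 126 in cKO), G0s2 (5.48 to 78.1 and 0.657 to 30.0) and the granzyme gene Gzma (3.65 to 38.6 and 2.30 to 19.6). After IR these UMIs came from few cells, in WT and cKO 103 and 92 with a UMI of S100a9, 50 and 42 with a UMI of G0s2 and 15 and 19 with a UMI of Gzma. All 3 genes belong to the marker lists of other cells, and the part of such cells was not tested.

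Monocyte genes were higher and C1q genes lower after IR. Ly6c2 was at 263 CPM in WT control and 1715 in WT IR, and at 167 and 1234 in cKO, a ratio of 2.71 (2.59 to 2.83) and 2.88 (2.75 to 3.01). Plac8 went from 395 to 2656 and from 416 to 2198 CPM (2.75 and 2.40). Thinned to 3000 UMIs, 25.6% of WT and 16.8% of cKO control cells had a UMI of Ly6c2, and 61.0% and 58.2% after IR. The NK-like barcodes had one in 66.0% of the control and 69.6% of the IR library, where free RNA and the NK-like cells' own expression cannot be told apart. The monocyte list had 4 of 8 genes higher in WT (median 0.87) and 3 of 8 higher and 1 lower in cKO (median 0.64). C1qa was at 643 and 474 CPM in WT and at 1196 and 651 in cKO, ratios of −0.44 and −0.88 that did not pass the limit, and Mrc1 had ratios of −0.94 and −0.48. Across the cells of a group, Ly6c2 and Rsad2 had a Spearman correlation of 0.19, 0.37, 0.13 and 0.27, and C1qa and Ly6c2 one of −0.17, −0.15, −0.20 and −0.09, over cells that share depth and free RNA.

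Some genes of class I presentation and some suppressive factors rose past the limit with IR, and few hypoxia genes did. Of 11 class I genes, 4 passed the limit in WT (median 0.71) and 6 in cKO (median 1.03), all of them higher, for example H2-T23, a non-classical class I gene (1.26 and 1.83), and Tapbp, the peptide-loading factor tapasin (1.04 and 1.12). Cd274, which encodes the checkpoint ligand PD-L1, was at 154, 319, 111 and 330 CPM (1.05 and 1.57), Pdcd1lg2, which encodes PD-L2, at 10, 32.7, 10.8 and 41.0 (1.68 and 1.90) and Lgals9, which encodes galectin 9, at 75.8, 251, 97.2 and 253 (1.72 and 1.38). These 3 made up all calls in WT among 15 counted suppressive and angiogenic factors, and in cKO Inhba was a further one (950 to 2303 CPM, 1.28) and Il10 was lower (33.2 to 6.34 CPM, −2.35). Vegfa was at 734, 808, 563 and 681 CPM and Thbs1 at 3033, 3478, 1747 and 2782. Of 27 hypoxia and glycolysis genes 0 passed in WT (median −0.06) and 1 in cKO (Pfkfb3, a glycolysis regulator, 1.14, median 0.19), and with TMM scaling the WT median was 0.07. The complement gene Cfb was higher by 2.82 and 2.65.

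Arginine genes split. Nos2, the inducible nitric oxide synthase that competes with arginase 1 for arginine, was at 166 and 390 CPM in WT and at 116 and 493 in cKO, a ratio of 1.23 (1.07 to 1.40) and 2.08 (1.93 to 2.25). Ass1, which rebuilds arginine from citrulline, rose from 149 to 375 and from 146 to 392 CPM (1.33 and 1.42). Srm, the spermidine synthase, fell from 45.2 to 12 and from 48.6 to 17.0 CPM, and Slc7a1, an arginine transporter, was at 31.5, 15.8, 34.5 and 16.3 CPM (−0.99 and −1.07). Arg1, on which the cells were selected, was at 6115, 7357, 7326 and 8663 CPM. The list as a whole had 2 genes higher and 1 lower of 15 in WT and 2 and 2 of 15 in cKO.

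The genes with the largest fall in both genotypes had low levels. Igfbp4, an insulin-like growth factor binding protein, went from 47.9 to 3.22 CPM in WT and from 44 to 4.27 in cKO (−3.80 and −3.31), and Dut, which keeps uracil out of DNA, from 37.4 to 4.57 and from 43.3 to 4.76 (−2.97 and −3.14). Csf3, the granulocyte growth factor G-CSF, was at 53, 12.9, 51.5 and 12.4 CPM (−2.02 and −2.03). Stmn1, a tubulin-binding protein of dividing cells, was at 50.7, 15.4, 136 and 10.5 CPM (−1.70 and −3.68). The others were Pmp22 (−1.98 and −1.97), Srm (−1.89 and −1.51), Gar1, a nucleolar protein (−1.64 and −1.73), Hmgn1 (−1.54 and −1.55), Ank (−1.52 and −1.53) and Idi1 of sterol synthesis (−1.51 and −1.56). These 10 genes were picked for a fall past the limit in both genotypes, so the lack of overlap between control and IR groups adds nothing further. Ribosomal protein genes were lower after IR without passing the limit, all 12 of them in each genotype, with medians of −0.87 and −0.75.

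Over all counted genes, 3.95% were higher and 1.89% lower with IR in WT, and 5.29% and 4.31% in cKO. The other lists are short, so counts of 1 or 2 genes are given as description beside these shares. Monocyte-attracting chemokines had 1 gene higher of 12 in WT and 1 higher and 1 lower of 13 in cKO, the higher gene being Ccl12 at 238, 549, 265 and 685 CPM. Inflammatory and NF-κB genes had medians of 0.01 and −0.37, with the neutrophil chemokine gene Cxcl1 at 1109, 630, 1013 and 426 CPM. Of the p53 targets 0 passed among 6 counted in WT and 7 in cKO, and Cdkn1a, the cell cycle inhibitor p21, was at 1271, 1640, 1162 and 1700 CPM. Iron and antioxidant genes had 0 of 9 and 0 of 10 past the limit, but 9 and 8 of them were above 0, with medians of 0.37 and 0.41. Class II genes outside the rule had 0 of 6 in WT and 1 higher and 1 lower of 6 in cKO, and the m6A genes 0 of 6 and 0 of 8. Of lipid-associated macrophage genes 0 of 15 passed in WT and 3 higher and 1 lower in cKO, among them Plin2, a lipid droplet coat protein, at 364, 517, 232 and 514 CPM. ATF4 stress genes had 2 of 8 lower in WT and 1 higher and 1 lower of 8 in cKO, and metalloproteinases 1 of 9 lower in WT and 1 higher and 1 lower of 11 in cKO.

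**Figure D4:**
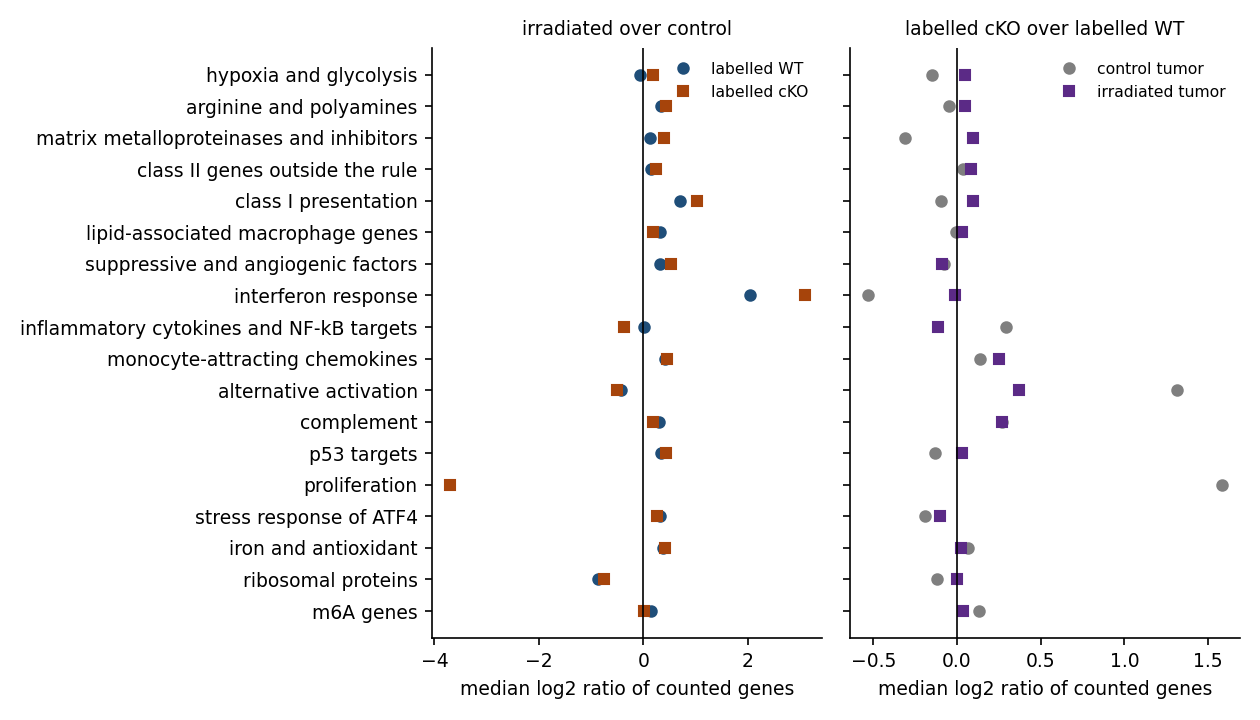
Median log2 ratio of the counted genes of each pathway list (x axis; lists with at least 3 counted genes) in the Arg1-high class II-low cells, irradiated over control on the left and cKO over WT on the right. The interferon list stands at 2.03 and 3.08 for IR, proliferation at −3.70 for IR in cKO and 1.58 for cKO over WT in control, and medians for cKO over WT in IR lie near 0.

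The genotypes differed in control tumors and hardly after IR. In control, 47 of 5120 counted genes (0.918%) were higher and 43 (0.84%) lower in cKO past the limit, and after IR 8 of 7318 (0.109%) were higher and 10 (0.137%) lower. Among 5087 genes counted in both, 2 were higher (Lyz1 and Ythdf2) and 2 lower (Lyz2 and a predicted gene model) at both treatments. WT control had the fewest cells (251), and each value there came from 1 pool.

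In control tumors, proliferation genes were higher in cKO. Of 8 counted, 6 were higher and 0 lower, with a median of 1.58, for example Mki67, which marks cycling cells, at 18.3 and 76.5 CPM in WT and cKO (2.04, 1.58 to 2.59), Top2a at 12.8 and 62.4 (2.25) and Birc5 at 7.31 and 41.4 (2.44). After IR both genotypes were low, Mki67 at 9.49 and 5.61 CPM, and in cKO all 8 counted genes of the list were lower after IR, with a median of −3.70. Cells with a UMI of Mki67 after thinning made up 2.40%, 1.27%, 11.7% and 1.51% (unthinned 6.37%, 3.18%, 22.0% and 3.61%). In NK-like barcodes that share was 9.0% in control and 1.45% in IR, but NK cells can divide themselves. The list summed to 169, 56.6, 504 and 41.0 CPM, highest in cKO control, with WT control above both IR groups. For IR in WT only 1 gene of the list was counted, and it was lower (−1.70).

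Interferon genes were lower in cKO than in WT in control tumors. Of 15 counted, 0 were higher and 5 lower, with a median of −0.53, namely Rsad2 (368 and 91.6 CPM, −2.0), Cmpk2 (50.2 and 16.7, −1.56), Ifit1 (48.4 and 22.3, −1.10), Slfn5 (111 and 52.9, −1.07) and Ifit3 (34.2 and 16.4, −1.04). After IR 0 of 17 passed and the median was −0.01. The genotypes lay apart in control and together in IR on these genes.

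Other differences in control tumors were spread over several lists. Il10, the anti-inflammatory cytokine, was at 5.02 CPM in WT and 33.2 in cKO (2.63), Tnf at 265 and 757 (1.51), and Lpl, lipoprotein lipase, at 15.1 and 64.0 (2.06). Of 4 counted genes of alternative activation 3 were higher, Mgl2, a galactose lectin (1.35), Egr2 (1.28) and Chil3, a chitinase-like protein, whose level of 990 against 276 CPM (1.84) came in large part from 1 cell. Ccl5, a T cell attractant, was lower, at 65.0 against 243 CPM (−1.90), and the T and NK cell lists moved the same way, from 58.0 to 1.64 and from 57.5 to 4.27 CPM between WT and cKO control. Their part in the Ccl5 difference was not tested. C1qa (643 and 1196 CPM, 0.89), Mmp12 (1437 and 967, −0.57) and Hilpda (1047 and 703, −0.57) did not pass the limit.

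After IR, the genes past the limit beside the label genes were few. Higher in cKO were Rrad (1.48), Csta2 (1.35), Ctla2a (1.28), the platelet chemokine gene Ppbp (1.19), Gzmb (1.18) and Zmynd15 (1.06). Among the lower genes were G0s2 (−1.38), Il23a (−1.33), Cxcl14 (−1.28), S100a9 (−1.24), Plpp3 (−1.07) and Nelfa (−1.03). Of these, Csta2 was at 27.8 CPM in WT and 71.0 in cKO, S100a9 at 297 and 126, and Cxcl14, a chemokine, at 34.4 and 14.0. The neutrophil list, which holds S100a9 and G0s2, summed to 699 and 370 CPM in WT and cKO. The part of neutrophils in this difference was not tested. Arg1 (7357 and 8663 CPM), Mmp12 (1291 and 1259), Spp1 (5652 and 4828) and Hilpda (1189 and 1198) were close between the genotypes after IR, and Pf4 was at 1290 and 2094 (0.70, 0.66 to 0.74).

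Some genes of low level went in opposite directions, 3 of which are given here. Ereg, the growth factor epiregulin, was at 8.22, 24.9, 39.7 and 18.1 CPM, Il23a, a subunit of interleukin 23, at 9.59, 16.8, 27.6 and 6.59, and Hspa1b, a stress-induced chaperone, at 232, 44.7, 24 and 67.1. For Ereg and Il23a the WT IR and cKO control groups were high, and for Hspa1b the WT control group was high.

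**Figure D5:**
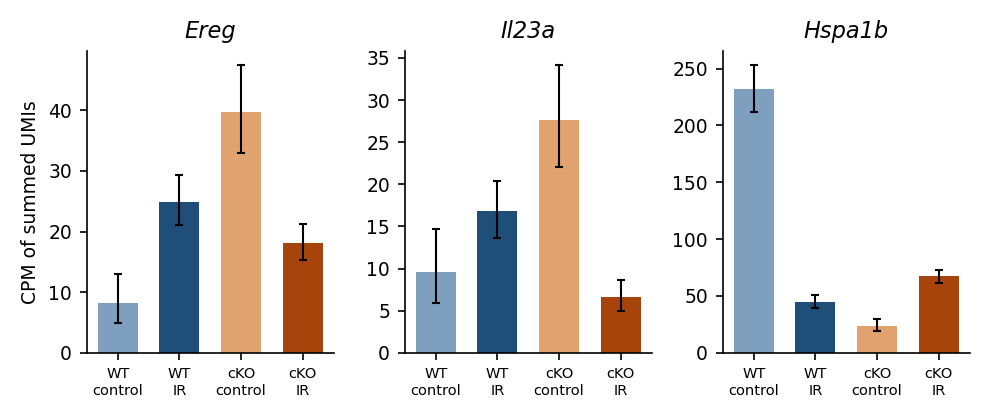
CPM of summed UMIs (y axis, from 0) of Ereg, Il23a and Hspa1b in the 4 tumor groups (x axis) of Arg1-high class II-low cells. Bars are 1 pool each and whiskers are exact Poisson 95% intervals for counting error. Il23a stands at 27.6 in cKO control and 6.59 in cKO IR, and Hspa1b at 232 in WT control.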

How the data were processed

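Gene and hashtag UMIs of 4 droplet libraries (2 from tumor, 2 from blood) were used. Per the methods, the authors aligned reads to mm10 with the GENCODE vM23 annotation and deposited raw UMI counts per feature and barcode, without normalization and with all barcodes present. The submitters' processing notes name Cell Ranger 6.0.1 and Seurat 4.0.6, while the matrix headers name Cell Ranger 4. No column of another series was present.

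From these counts, cells were selected with numpy 2.4.6, scipy 1.17.1 and pandas 2.3.3, and UMIs were summed per group and scaled to counts per 1000000 (CPM). TMM factors came from edgeR 4.0.16 (R 4.3.3), which was used for nothing else. No doublet was removed, and leaving out the 6% of barcodes with the highest Scrublet score (scanpy 1.11.5) was an alternative. With 1 pool per group no test was possible, so the design's limit of 1 on the log2 scale with at least 100 UMIs in both groups together stood in for one. Levels carry exact Poisson, ratios exact conditional binomial, shares Clopper-Pearson and differences of shares Newcombe intervals. The procedure was tested on simulated counts. Named genes were those of the rule and the label checks, the first 10 in each direction of each kind of comparison past the limit in every group, and list genes past it. Genes outside that rule were named after their values were seen. The members and the gene lists were chosen with earlier results of these data known. Promoter windows were matched by gene symbol. Coordinates follow RefSeq on GRCm38.p6. Some genes are not reported here.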

Additional observations from a re-analysis of the deposited data

Results flagged for a closer look

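A pair of effects under the same contrast went in opposite directions past the limit for the 3 genes given here, each in 1 pool per group, and the difference between the effects was not tested. Ereg changed with IR by 1.57 in WT and −1.13 in cKO, but 44.2% of its UMIs in WT IR came from 1 cell, and the WT ratio was −1.37 with equal numbers of cells per group. Hspa1b changed with IR by −2.37 in WT and 1.48 in cKO. Il23a differed between the genotypes (Il23a, cKO against WT in control) by 1.49 in control and −1.33 in IR, and the control value was −0.010 when cells with up to 2% class II were admitted.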

How the results depend on the processing

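No paired analysis was possible because each group was 1 sample, although the labels give every group the same replicate number. The 16 alternatives run left 102 of 135 main values within their counting interval or the 1.5-fold band for counts, moved 32 and reversed 1. For genes and lists 3468 of 4130 values held, 652 moved and 10 reversed. Shares of selected cells over both libraries moved from 18.7% to 23.3% with Arg1 at 10 UMIs, 12.6% at 40 UMIs, 23.6% with Arg1 at 0.2% of UMIs, 23.5% with class II under 2%, 15% under 0.5%, 21.4% with a 4-fold WT hashtag margin, 21.3% with both tumor matrices added and 20.6% in cells thinned to 5000 UMIs. The IR difference moved to 14.2 (WT) and 14.7 (cKO), 8.34 and 7.77, 15.9 and 16.2, and, for class II under 0.5%, both matrices added and thinning, 9.98 and 10.6, 14.3 and 14.8, and 16.7 and 16.8 points. The genotype difference in control moved to 5.92 points with class II under 2% and reversed to −0.0449 with the 4-fold WT margin, where it was 0.493 in IR. With a minimum of 20 UMIs per gene, genes past the limit numbered 991 and 1389 for IR in WT and cKO (356 and 673), 468 and 186 for genotype in control and IR (90 and 18), and 165 and 843 against class II-high macrophages and monocyte-like cells (90 and 337), since more low genes were counted. Both matrices added gave 140, 28 and 538 for genotype in control, in IR and the monocyte comparison, and equal numbers of 251 cells gave 411 for IR in cKO. Reversed gene ratios were, for genotype in control, Ifi208 at −0.21 (Arg1 at 10 UMIs) and −0.53 (class II under 2%), S100a9 (S100a9, cKO against WT in control) at −1.69 (Arg1 at 40 UMIs) and Il23a (Il23a, cKO against WT in control) at −0.010 (class II under 2%), for IR in cKO, Lyz2 at −0.14 (class II under 2%) and Gzma (Gzma, IR against control in cKO) at −0.38 (top Scrublet scores left out) and −0.055 (cells with other markers, Gzma and G0s2 among them, left out, which removes the cells with these genes), and for IR in WT, Gzma at −0.74 and G0s2 (G0s2, IR against control in WT) at −0.25 (the same cells left out) and Ereg at −1.37 (equal numbers). The cause of these moves was not tested. Leaving out shared barcodes was planned and left 0, 0, 0 and 1 cells, so it was not run.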

Other observations

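Groups of genes described here were put together after their values were seen, so their counts are descriptions. Sterol synthesis genes were lower after IR in the Arg1-high cells. Of 13 counted genes 6 passed the limit in WT (median −0.98) and 10 in cKO (median −1.44), all lower, and the list summed to 818, 440, 1079 and 461 CPM in the order WT control, WT IR, cKO control and cKO IR. Sqle, the squalene epoxidase, was at 45.2, 15.8, 58.4 and 18.3 CPM, Fdps, which makes farnesyl diphosphate, at 122, 52.0, 193 and 57.6, and Cyp51 at 108, 40, 120 and 42.7. Nucleolar and ribosome assembly genes were lower too, 6 of 10 counted in WT (median −1.11) and 11 of 12 in cKO (median −1.37), among them Nop58, a core protein of small nucleolar particles, at 71.7, 26.6, 89.0 and 26.2 CPM and Npm1, nucleophosmin, at 868, 410, 752 and 380 (−1.08 and −0.98). Heat shock genes had 4 of 9 lower in WT (median −0.57) and 2 higher and 1 lower in cKO (Hspa1b 1.48, Hsph1 1.19 and Hspd1 −1.23), with a median of −0.10 that was 0.02 with TMM scaling.

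Of 8 counted coagulation and fibrinolysis genes, 5 were higher than in the class II-high macrophages in all 4 groups (medians 2.15, 1.90, 2.03 and 1.39). The share over all 4357 counted genes was 1.35%. Genes such as Thbd and Serpinb2 already led this comparison when the list was made, so the count adds nothing further. Tissue factor, F3, which starts clotting, was at 48.4, 36.9, 80.8 and 44.3 CPM against 8.92, 10.8, 13.8 and 20.7, and F7, its partner protease, at 40.2, 62.2, 51.9 and 75.8 against 10.3, 14.7, 17.5 and 23.4. Against the monocyte-like cells 4 of 11 were higher (F3, F7, Thbd and Serpinb2) and 1 was lower (Pros1), where 2.18% of all counted genes were higher and 2.82% lower. Within the Arg1-high cells Thbd was at 104, 158, 56.5 and 132 CPM and Procr, the receptor of protein C, at 16.0, 29.6, 7.88 and 28.1.

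A further 42 control and 98 IR barcodes met the limits on genes but carried hashtags that gave no genotype, of 431 and 501 such barcodes in all.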
